A study of Mus musculus with 8 samples.

Results

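Tuft cells are rare epithelial cells that sense the gut content through a taste-like pathway. In that pathway a receptor acts through G proteins, phospholipase C and calcium release to open the cation channel Trpm5. The cells depend on the transcription factor Pou2f3, carry an apical bundle of actin, and release lipid mediators and cytokines that act on type 2 immunity. In mouse intestine Dclk1 is the marker most often used for them. The 8 genes described here are Trpm5 (taste signalling), Dclk1 and Avil (cytoskeleton), Pou2f3 and Gfi1b (lineage), Alox5 and Ltc4s (leukotriene synthesis) and Siglecf (surface receptor). They were chosen by symbol, and all 8 were found among the 53379 genes listed. The edgeR low-count filter kept 14991 genes, among them 6 of the 8, and removed Ltc4s and Gfi1b.

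RNA was sequenced from distal colon epithelial cells of C57BL/6 mice, in 8 libraries that form 4 groups of 2. RORaf/f mice, which carry floxed Rora alleles and are called WT, and RORaΔIEC mice, in which Rora is deleted in the intestine and which are called KO, were each left without treatment (control) or given dextran sulfate sodium (DSS). DSS is a polymer that injures the colon lining. The mice drank it as a 2% (w/v) solution over 5 days, and plain water then followed over 3 days. The Cre driver, the sex and age of the mice and the number of mice behind a library are not given in the sources used here, so the p-values reflect the spread among these samples alone, and that spread may be technical. In whole-epithelium RNA, fewer tuft cells and less of an RNA in each tuft cell cannot be told apart.

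Total expected counts ranged from 15971642 to 20418466 per library, and 1 library with 3 counts of a gene reads between 0.150 and 0.191 CPM (a count scaled to a common library total). The 10 general epithelial genes summed to between 14941 and 17850 CPM over the 8 libraries. Rora, the deleted gene, had 12 and 6 counts in control WT, 4 and 3 in control KO, 16 and 14 in DSS WT, and 8 and 5 in DSS KO. These counts are too low to check the deletion closely, and gene counts do not show the floxed exon. Neutrophil markers differed widely between groups. The 12 listed summed to between 0.280 and 0.601 CPM in the control libraries, to 11.4 and 13.1 in DSS WT, and to 219.8 and 234.0 in DSS KO.

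The sequences upstream of 3 of the genes are shown because Trpm5 and Dclk1 fell together under DSS and Avil did not. Each is the 250 bases before a start site, 5′ to 3′ on the gene's own strand, taken from RefSeq on GRCm38.p6. Capitals mark the letters ATGCAAA on either strand, the core of the octamer that POU factors such as Pou2f3 bind. Trpm5 lies on the minus strand at chr7:143094643-143094892, Avil on the plus strand at chr10:127000459-127000708, and the 2 start sites listed for Dclk1 on the plus strand at chr3:55242114-55242363 and chr3:55461478-55461727.
Trpm5: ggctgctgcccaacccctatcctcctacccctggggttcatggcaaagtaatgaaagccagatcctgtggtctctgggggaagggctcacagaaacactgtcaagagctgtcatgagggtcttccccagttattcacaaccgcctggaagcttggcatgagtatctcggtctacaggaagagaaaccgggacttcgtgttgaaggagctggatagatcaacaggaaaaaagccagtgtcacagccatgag
Avil: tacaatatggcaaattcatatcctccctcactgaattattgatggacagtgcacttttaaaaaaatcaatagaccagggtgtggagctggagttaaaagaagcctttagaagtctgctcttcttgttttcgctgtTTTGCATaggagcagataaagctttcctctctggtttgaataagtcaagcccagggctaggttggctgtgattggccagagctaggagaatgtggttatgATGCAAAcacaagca
Dclk1 first start: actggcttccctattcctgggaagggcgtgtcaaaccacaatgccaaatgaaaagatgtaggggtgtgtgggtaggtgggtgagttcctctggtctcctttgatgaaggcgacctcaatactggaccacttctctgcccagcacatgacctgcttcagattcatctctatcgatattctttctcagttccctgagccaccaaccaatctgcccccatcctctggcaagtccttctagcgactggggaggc
Dclk1 second start: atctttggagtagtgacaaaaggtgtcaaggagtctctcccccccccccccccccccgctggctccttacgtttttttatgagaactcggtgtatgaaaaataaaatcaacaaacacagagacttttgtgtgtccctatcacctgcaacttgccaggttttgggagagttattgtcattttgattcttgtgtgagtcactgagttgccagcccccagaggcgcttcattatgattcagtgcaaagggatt

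RefSeq windows of 300 bases, from 250 before to 50 after the start, were found for 7 of the 8 genes. The octamer ATGCAAAT was in none of these windows, and 1.74% of the 32817 mouse promoter windows hold it on either strand. The ROR half-site, searched as TAGGTCA and TGGGTCA on either strand, was also in none, against 6.46% of all windows. The shorter ATGCAAA, which lies inside the octamer and was searched after the sequences were seen, occurred 2 times in the Avil window and in no other of the 7, against 4.63% of all windows. A match is a run of letters and not a measured site.

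Trpm5 is the calcium-gated cation channel that depolarises taste cells and tuft cells (ENSMUSG00000009246, chromosome 7, 143069153 to 143094642, minus strand of mm10). Its counts were 84 and 81 in control WT, 81 and 70 in control KO, 19 and 13 in DSS WT, and 10 and 11 in DSS KO. All 4 control libraries were far above all 4 DSS libraries. The mean fell from 4.37 ± 0.236 to 0.954 ± 0.266 CPM (SD, n = 2) in WT, with a fitted fold of 4.56 (log2 fold change = -2.19 ± 0.24 SE, edgeR adjusted p = 9.68e-06). In KO it fell from 4.72 ± 0.610 to 0.602 ± 0.0383 CPM, with a fitted fold of 7.74 (-2.95 ± 0.27, adjusted p = 6.03e-07). KO against WT gave 0.11 ± 0.18 in controls (adjusted p = 0.75) and -0.65 ± 0.36 under DSS (adjusted p = 0.181). The change of the DSS response with genotype, the interaction, was -0.76 ± 0.40 and did not pass the test (adjusted p = 0.2). With the length RSEM assigned in each library as an offset, the DSS change in KO was -1.93 and still passed, and the genotype difference under DSS turned to 0.33. The length assigned to Trpm5 ran from 1361 to 3479 bases over the libraries. Trpm5 shares 220 exon bases with Tssc4 on the opposite strand, which had a DSS change of -0.45 for WT (adjusted p = 0.00958) and -0.06 for KO (adjusted p = 0.69).

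Dclk1 is a microtubule-associated kinase and the common tuft cell marker (ENSMUSG00000027797, chromosome 3, 55242364 to 55539068, plus strand). Its counts were 69 and 64 in control WT, 90 and 53 in control KO, 22 and 14 in DSS WT, and 5 and 7 in DSS KO. Control libraries were the highest, DSS WT lay between, and DSS KO was the lowest without overlap. In CPM the group means were 3.52 ± 0.0936, 4.48 ± 1.75, 1.07 ± 0.352 and 0.344 ± 0.0798 (SD, n = 2). With DSS, Dclk1 fell in WT by a fitted 3.27-fold (log2 fold change = -1.71 ± 0.32, adjusted p = 0.000785). The fitted fall in KO was 12.7-fold (-3.67 ± 0.39, adjusted p = 2.97e-06). Control KO and control WT gave 0.34 ± 0.25 (adjusted p = 0.401).

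Under DSS, Dclk1 was lower in KO than in WT (-1.62 ± 0.51, adjusted p = 0.0212), and the interaction passed the test at -1.96 ± 0.57 (adjusted p = 0.0245). Both rest on few counts. The DSS genotype call was lost without DSS WT replicate 1 (-1.24, adjusted p = 0.178) and without DSS KO replicate 1 (adjusted p = 0.0794). The interaction was lost without replicate 1 of any of the 4 groups, up to adjusted p = 0.158 without DSS WT replicate 1, and with length offsets (adjusted p = 0.0756). Markers of neurons and glia, which also express Dclk1, summed to between 4.52 and 5.77 CPM over all libraries, with 3 of 10 passing the filter. Dclk1 shares 87 exon bases with the antisense gene Gm42609 and 27 with Gm21954.

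**Figure D1:**
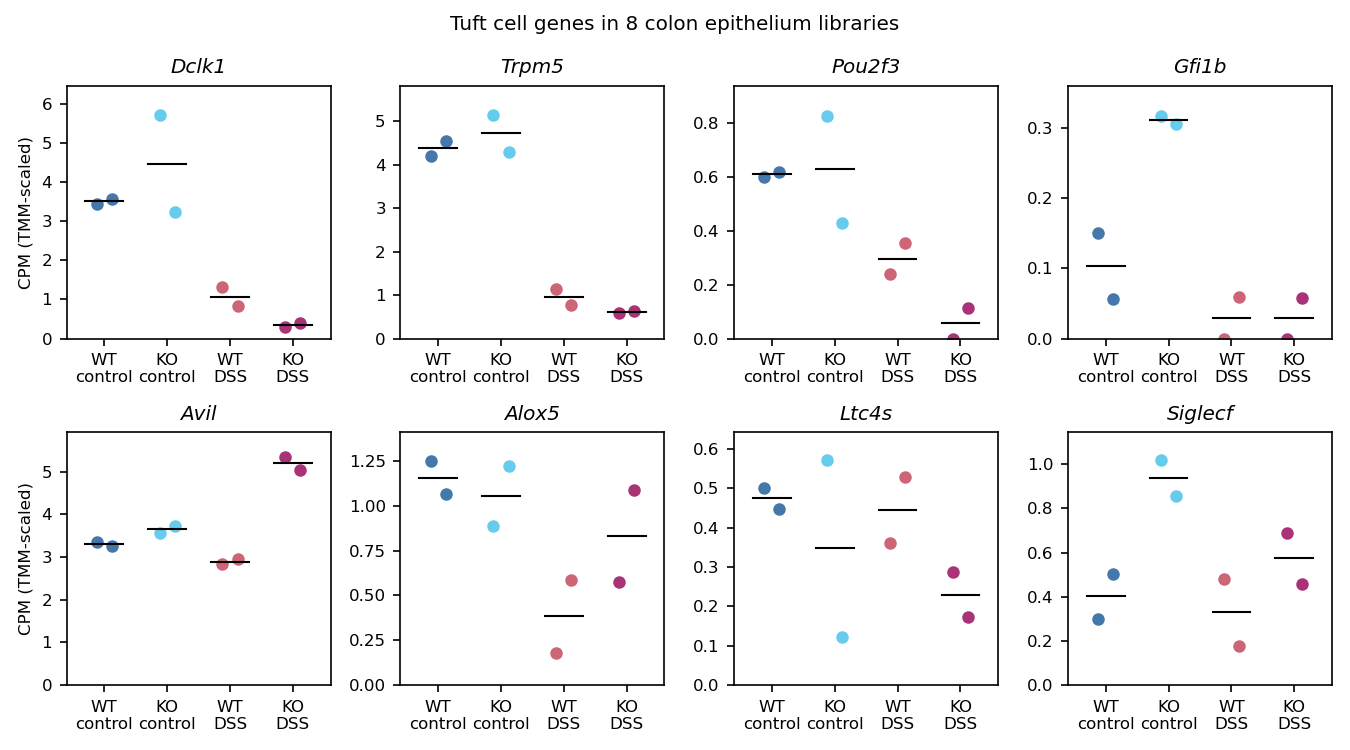
Level of the 8 tuft cell genes in CPM (vertical axes, each starting at 0) in the 4 groups, with 1 point per library and a line at the mean of 2. Trpm5 and Dclk1 separate control from DSS libraries in both genotypes, while Avil is highest in DSS KO.

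Avil encodes advillin, an actin-bundling protein of the villin family found in tuft cells and sensory neurons (ENSMUSG00000025432, chromosome 10, 127000709 to 127020994, plus strand). Its counts were 67 and 58 in control WT, 56 and 61 in control KO, 47 and 50 in DSS WT, and 93 and 88 in DSS KO. Both DSS KO libraries stood above the other 6. The mean was 3.30 ± 0.0734, 3.65 ± 0.124, 2.88 ± 0.0846 and 5.19 ± 0.223 CPM in that order of groups (SD, n = 2). Avil was higher in KO than in WT under DSS (0.85 ± 0.16, adjusted p = 0.00091), and it rose with DSS in KO (0.51 ± 0.16, adjusted p = 0.0185) but not past the threshold in WT (-0.20 ± 0.17, adjusted p = 0.444). In controls, KO against WT gave 0.14 ± 0.17 (adjusted p = 0.659).

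The Avil interaction was 0.70 ± 0.24 (adjusted p = 0.047), and it missed the threshold without any 1 of the 8 libraries (adjusted p between 0.0637 and 0.13). The rise with DSS in KO was lost with DESeq2 (adjusted p = 0.195), with length offsets, and without either control KO library or DSS KO replicate 1. The genotype difference under DSS held without each library in turn and was lost with length offsets (adjusted p = 0.0577). Exons of Avil overlap those of Tsfm on the opposite strand over 165 bases, and the strand setting of the counting is not given in the sources used here. Tsfm itself gave 0.36 for KO against WT under DSS (adjusted p = 0.00594) and 0.05 for DSS in KO (adjusted p = 0.667). The neutrophil and macrophage lists were also highest in DSS KO, and their part in the Avil values was not tested.

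Pou2f3 is the POU-domain factor required for tuft cells to form (chromosome 9, 43123939 to 43210369, minus strand). It had 12 and 11 counts in control WT, 13 and 7 in control KO, 4 and 6 in DSS WT, and 0 and 2 in DSS KO. Every DSS library was below every control library, and only control libraries carried Pou2f3 past the low-count filter. In KO the 2 counts under DSS against 20 in controls make a ratio 10.9-fold lower (95% exact counting interval 2.64 to 95.9, edgeR adjusted p = 0.00461). That call was lost without control KO replicate 1 (adjusted p = 0.0655), and both DSS KO counts come from replicate 2. In WT the DSS change of -1.01 ± 0.57 did not pass (adjusted p = 0.178). Under DSS, KO was 5.18-fold below WT by counts (interval 1.10 to 48.7), and the test did not call it (adjusted p = 0.0765). Without DSS KO replicate 2, which leaves a library with no count, it was called (adjusted p = 0.0402), and without replicate 1 the log2 value was -1.32.

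Gfi1b, a zinc-finger repressor of tuft cells and of the megakaryocyte and red cell lineages (chromosome 2, 28609450 to 28621982, minus strand), was at the detection limit. Its counts were 3 and 1 in control WT, 5 and 5 in control KO, 0 and 1 in DSS WT, and 0 and 1 in DSS KO. The control KO libraries were the highest, and the DSS libraries held 2 counts in all. Within KO, 1 count under DSS against 10 in controls is 10.9-fold lower, with a counting interval from 1.55 to 472. Control KO against control WT, 10 counts against 4, had an interval of 0.850 to 12.9. The platelet markers Ppbp, Gp9, Treml1 and Clec1b had 0 or 1 counts in each library. The whole list of 12 megakaryocyte and platelet genes summed to between 6.86 and 8.77 CPM over the libraries. Of its 5 tested genes DSS called 1 higher in WT (Itga2b, 0.84), beside 18.9% of all genes. In KO it called 2 lower (Gp6, -2.38, and Itga2b, -0.92), beside 19.8%. The erythroid list summed to between 68.7 and 74.8 CPM in controls, 161 and 163 in DSS WT, and 89.9 and 97.5 in DSS KO. With DSS, 5 of its 7 tested genes were higher in WT, beside 18.9% of all genes. In KO, 3 were higher and 1 lower, beside 21.7% and 19.8%. The part of these lineages in the Gfi1b counts was not tested.

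Alox5 is 5-lipoxygenase, which starts leukotriene synthesis and is also abundant in myeloid cells (chromosome 6, 116410077 to 116461178, minus strand). Its counts were 25 and 19 in control WT, 14 and 20 in control KO, 3 and 10 in DSS WT, and 10 and 19 in DSS KO. The DSS replicates lay far apart, and DSS KO overlapped the controls. DSS lowered Alox5 in WT from 1.16 ± 0.132 to 0.385 ± 0.289 CPM (SD, n = 2; -1.57 ± 0.48, adjusted p = 0.0202). This call was lost with DESeq2 (adjusted p = 0.0918), with length offsets (adjusted p = 0.289), and without either control WT library or DSS WT replicate 1 (-0.98, adjusted p = 0.198). Without DSS WT replicate 2 it was -2.64. In KO the DSS change was -0.35 ± 0.43 (adjusted p = 0.558), and the interaction was 1.22 ± 0.66 (adjusted p = 0.207). KO against WT gave -0.13 ± 0.40 in controls (adjusted p = 0.868) and 1.09 ± 0.52 under DSS (adjusted p = 0.114). Without DSS WT replicate 2 the latter was 2.16 (adjusted p = 0.0442) and without DSS KO replicate 1 it was 1.48 (adjusted p = 0.0471), both past the threshold. Neutrophil and macrophage marker sums were highest in DSS KO. The mast cell list was highest in DSS WT, at 88.2 and 84.5 CPM, against 61.1 and 61.0 in DSS KO and between 54.3 and 65.5 in controls. Its genes did not move together. For KO against WT under DSS, 2 of 6 tested were called higher and 3 lower, beside 21.3% and 17.7% of all genes. Hdc was higher (2.98), and Mcpt1 (-1.77) and Kit (-0.80) were lower. The part of these cells in the Alox5 values was not tested.

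Ltc4s, which joins glutathione to leukotriene A4 and so makes the cysteinyl leukotrienes (chromosome 11, 50236461 to 50238616, minus strand), had too few counts for the test. They were 10 and 8 in control WT, 9 and 2 in control KO, 6 and 9 in DSS WT, and 5 and 3 in DSS KO. The groups overlapped, and all 4 ratios between groups had counting intervals that span 1, such as 0.234 to 1.83 for DSS against control in KO. A change of Ltc4s was not detectable at this depth, and 268 of its exon bases are shared with the antisense gene Gm26542.

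Siglecf, a sialic acid receptor used as a marker of eosinophils and of tuft cells (chromosome 7, 43351341 to 43359531, plus strand), had 6 and 9 counts in control WT, 16 and 14 in control KO, 8 and 3 in DSS WT, and 12 and 8 in DSS KO. Control KO was above the other libraries. Siglecf passed the low-count filter through the control KO libraries and DSS KO replicate 1, so its place among the tested genes was tied to its KO level. KO against WT in controls was 1.22 ± 0.47 with an unadjusted p of 0.0209 that did not hold after adjustment (edgeR adjusted p = 0.101). None of the other comparisons passed, with adjusted p of 0.27 for genotype under DSS, 0.75 for DSS in WT, 0.231 for DSS in KO and 0.738 for the interaction. The eosinophil granule genes Prg2, Epx, Ear1, Ear2 and Ear6 had 0 or 1 counts in each library. Il5ra of the same list did move with DSS, with 0 and 1 counts in control WT, 1 and 1 in control KO, 20 and 21 in DSS WT, and 113 and 115 in DSS KO.

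The sum over the 8 genes was lower in each of the 4 DSS libraries than in any control library. The summed level was 13.9 ± 0.176 CPM in control WT, 16.1 ± 2.72 in control KO, 6.40 ± 0.218 in DSS WT and 7.86 ± 0.133 in DSS KO (SD, n = 2). Avil made up between 19.7% and 26.3% of that sum in controls, 43.1% and 47.2% in DSS WT, and 68.9% and 63.3% in DSS KO. Without Avil, left out after its values were seen, the sum was 10.6 ± 0.2496 and 12.5 ± 2.84 CPM in control WT and KO, and 3.51 ± 0.303 and 2.67 ± 0.355 CPM under DSS. With Avil the sum was higher in DSS KO than in DSS WT, and without it the order was the opposite.

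Of the 6 genes tested, DSS in WT lowered 3 (Trpm5, Dclk1 and Alox5) and raised none, where 37.2% of all tested genes were called, 18.9% higher and 18.3% lower. In KO, DSS lowered 3 (Trpm5, Dclk1 and Pou2f3) and raised 1 (Avil), where 41.6% of all genes were called, 21.7% higher and 19.8% lower. The median log2 change of the 6 genes was -1.29 in WT and -1.83 in KO, beside -0.007 and 0.001 over all genes. Pou2f3 passed the low-count filter only through control libraries, at 0.428 to 0.826 CPM there and at most 0.353 under DSS. Its place among the tested genes and in these medians was thus tied to its control level. KO against WT called none of the 6 in controls, against 15.4% of all genes (9.19% higher and 6.22% lower), and DESeq2 also called none of the 3 for which it gave an adjusted p (Dclk1, Trpm5 and Avil). By edgeR, Siglecf alone had an unadjusted p under 0.05 there, and it passed the filter through KO libraries only. Under DSS, genotype called 2, Avil higher and Dclk1 lower, against 39.1% of all genes (21.3% higher and 17.7% lower). The interaction called the same pair, against 21.4% (10.8% higher and 10.6% lower). The DSS comparisons and the genotype comparisons share libraries with each other.

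**Figure D2:**
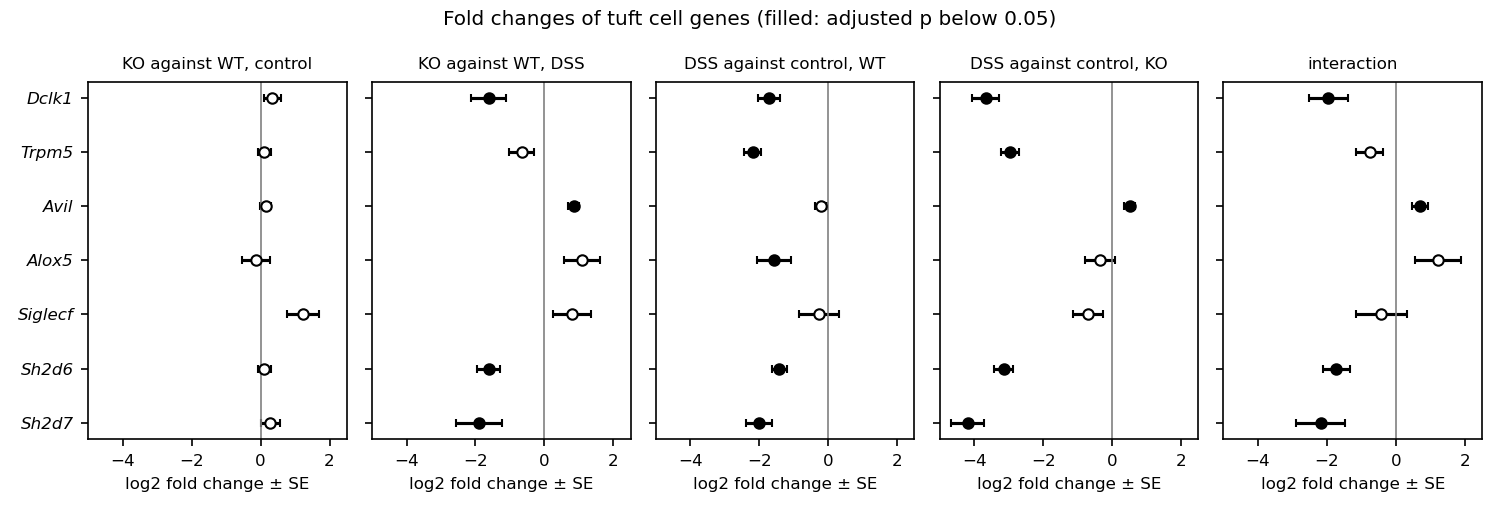
Log2 fold change ± SE (horizontal axes) of 5 of the tested genes and of Sh2d6 and Sh2d7 in the 5 comparisons, with filled points where the edgeR adjusted p was under 0.05. Dclk1, Trpm5, Sh2d6 and Sh2d7 lie left of 0 for DSS in both genotypes, and Avil lies right of 0 for KO against WT under DSS.

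Compared per unit of length in deposited TPM, the order of the genes changed with DSS. In control WT it ran Trpm5 (1.915 ± 0.233 TPM, SD, n = 2), Avil (1.69 ± 0.339), Dclk1 (1.625 ± 0.389), Ltc4s (1.435 ± 0.163), Alox5 (0.740 ± 0.255), Gfi1b (0.365 ± 0.0495), Pou2f3 (0.335 ± 0.0212) and Siglecf (0.205 ± 0.0778). The first 4 of these, and the pair Gfi1b and Pou2f3, did not differ from their neighbours by more than the larger SD. In control KO only Trpm5 (2.405 ± 0.106) stood apart from its neighbour, Dclk1 (1.72 ± 0.339), by that measure. In DSS WT, Avil (1.61 ± 0.368) and Ltc4s (1.285 ± 0.403) led and did not differ, followed by Trpm5 (0.545 ± 0.106), Alox5 (0.465 ± 0.502) and Dclk1 (0.400 ± 0.0990), which did not differ among neighbours. In DSS KO, Avil (2.565 ± 0.148) was above Alox5 (1.025 ± 0.431), Ltc4s (0.835 ± 0.0636) and Trpm5 (0.710 ± 0.0707), and Dclk1 was at 0.140 ± 0.0990. TPM depends on the length RSEM assigned, which ran from 2533 to 6399 bases for Dclk1, 797 to 2690 for Alox5 and 357 to 1759 for Gfi1b over the libraries.

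Among other genes listed for tuft cells, 33 of 34 symbols were found and 26 passed the filter. DSS lowered 9 and raised 3 of the 26 in WT, beside 18.3% of all genes lower and 18.9% higher. In KO it lowered 9 and raised 6, beside 19.8% and 21.7%. Under DSS, KO against WT called 9 higher and 10 lower, beside 21.3% and 17.7%, while controls gave none higher and 2 lower, beside 9.19% and 6.22%. The medians were -0.20, -0.02, -0.08 and 0.02 in that order, beside -0.007, 0.001, -0.006 and 0.007 over all genes. The list therefore held genes that moved in both directions.

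Sh2d6 and Sh2d7, SH2-domain adaptors found in tuft cells, followed Dclk1 and Trpm5 closely in direction. Sh2d6 had 83 and 62 counts in control WT, 63 and 69 in control KO, 25 and 23 in DSS WT, and 9 and 7 in DSS KO. The groups under DSS did not overlap each other or the controls. Sh2d6 fell with DSS, with a log2 change of -1.42 ± 0.22 for WT (adjusted p = 0.000188) and -3.14 ± 0.28 for KO (adjusted p = 4.51e-07), and KO was below WT under DSS (-1.62 ± 0.34, adjusted p = 0.00152). Its interaction was -1.73 ± 0.38 (adjusted p = 0.00599), and it passed without each library in turn (adjusted p from 0.00692 to 0.0326).

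Sh2d7, named after its values were seen, had 41 and 28, 39 and 32, 8 and 7, and 3 and 1 counts in the same order of groups. Only control libraries carried Sh2d7 past the low-count filter, so its place among the tested genes was tied to its control level. Its DSS change was -2.01 for WT (adjusted p = 0.000672) and -4.19 for KO (adjusted p = 5.56e-06, from -5.11 without DSS KO replicate 1 to -3.63 without replicate 2). Its interaction of -2.18 (adjusted p = 0.0426) was lost without 7 of the 8 libraries. Sh2d7 shares 227 exon bases with Cib2 on the opposite strand.

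Further tuft genes that fell were Matk, a kinase that restrains Src family kinases, and Hpgds, the haematopoietic prostaglandin D synthase. The Matk change was -0.89 for WT (adjusted p = 0.0129) and -1.92 for KO (adjusted p = 3.18e-05), and the WT call was lost with DESeq2 (adjusted p = 0.119) and without control WT replicate 1 or DSS WT replicate 1 (-0.64, adjusted p = 0.14). Hpgds showed -0.90 for WT (adjusted p = 0.000344) and -1.37 for KO (adjusted p = 2.34e-05), and was lower in KO than in WT under DSS (-0.85, adjusted p = 0.00247), which did not pass with length offsets (adjusted p = 0.0647). Rgs13, a regulator of G protein signalling, passed the low-count filter only through control libraries. It had 12 and 20, 17 and 15, 2 and 9, and 0 and 4 counts in the 4 groups. It was called lower with DSS in KO (-3.04, adjusted p = 0.0057; -2.09 without DSS KO replicate 1, which had no count) and not in WT (-1.36, adjusted p = 0.108).

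Several tuft genes were too rare to test. Hmx2, a homeobox gene, had 7 and 5 counts in control WT and 6 and 6 in control KO. Under DSS it had 0 and 0 in WT and 1 and 2 in KO. When 3 counts over the group stand in for 0, it was 3.56-fold lower with DSS in WT. That value leaves out the counting error of the controls and is not a lower limit. Chat, which makes acetylcholine, had 3 and 6, 4 and 4, 1 and 1, and 0 and 0 counts. With the same substitution it was 2.90-fold lower with DSS in KO. Ffar3, a receptor for short-chain fatty acids, had 4 and 2, 6 and 4, 1 and 1, and 1 and 0 counts. Bmx had 23 counts in control WT, 18 in control KO, 5 in DSS WT and 13 in DSS KO, summed over each group. Nrgn had 6, 12, 1 and 4. Both were lower with DSS in each genotype, with counting intervals that span 1 except for Bmx in WT. Under DSS both were higher in KO than in WT, with counting intervals that span 1. Il25, the tuft cell cytokine, had 0 to 2 counts per library, and the succinate receptor gene Sucnr1 had none in any library, so neither could be compared at this depth.

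**Figure D3:**
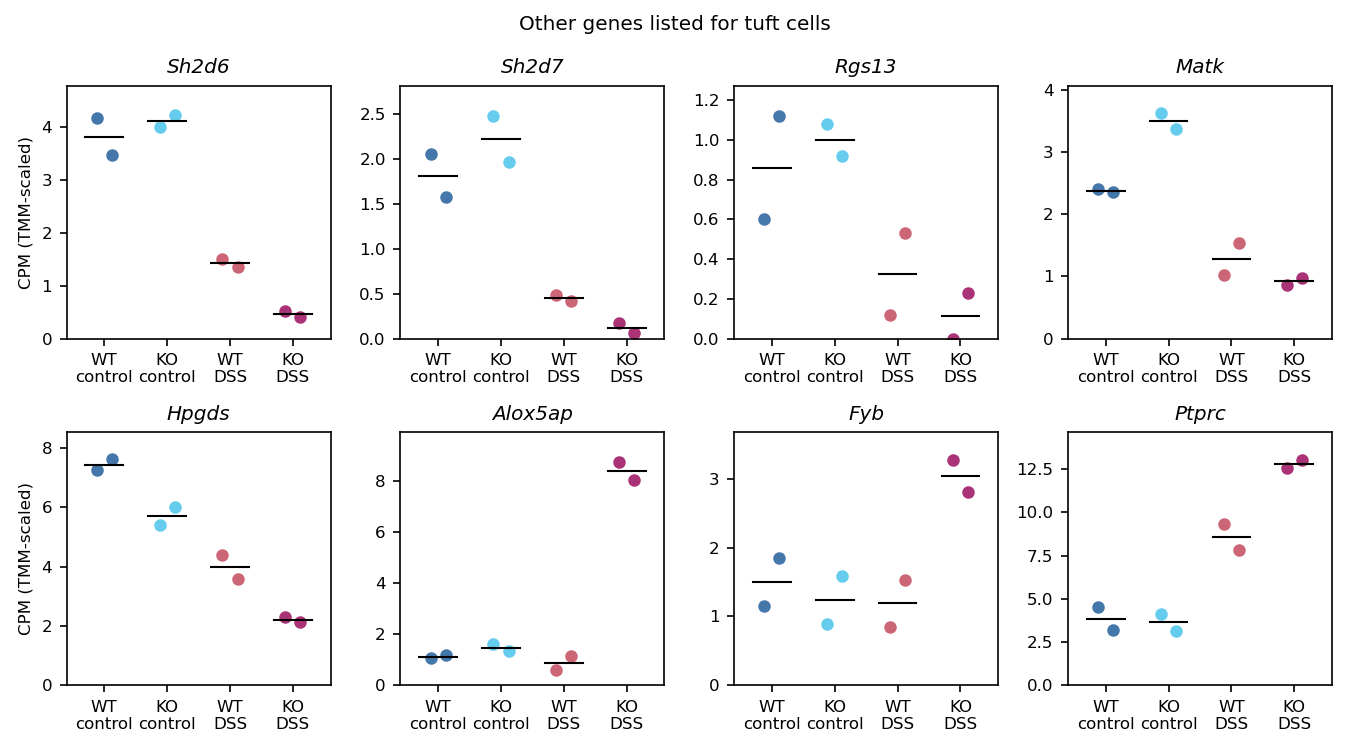
Level in CPM (vertical axes, each starting at 0) of 8 other genes listed for tuft cells, 1 point per library and a line at the mean of 2. Sh2d6, Sh2d7, Rgs13, Matk and Hpgds are lower with DSS, while Alox5ap, Fyb and Ptprc are highest in DSS KO.

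Among the list genes higher with DSS were Kctd12 (0.50, adjusted p = 0.000111), Cd24a (0.28, adjusted p = 0.00013) and Ptprc in WT, and Alox5ap, Chil1, Skap2, Fyb and Ptprc in KO. Chil1 passed the low-count filter only through DSS KO. Alox5ap, the protein that presents arachidonate to 5-lipoxygenase, had 21 and 21 counts in control WT, 25 and 22 in control KO, 10 and 19 in DSS WT, and 152 and 140 in DSS KO. Only the DSS KO libraries stood apart. KO exceeded WT under DSS by 3.27 ± 0.23 (adjusted p = 8.63e-08), and the interaction was 2.87 ± 0.40 (adjusted p = 0.000191). Fyb, an adhesion adaptor, had an interaction of 1.60 (adjusted p = 0.0318). It was lost without control WT replicate 2, control KO replicate 1 or DSS WT replicate 1 (adjusted p up to 0.161), and with DESeq2 or length offsets. Ptprc, the leukocyte common antigen, rose with DSS by 1.14 in WT and 1.82 in KO.

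In the same libraries the neutrophil list had 11 of 11 tested genes higher in KO than WT under DSS, beside 21.3% of all genes. Some, such as Ngp (0 counts in DSS WT, 129 in DSS KO) and Mmp8 (5 and 236), passed the low-count filter only through DSS KO. Their calls were thus tied to that level. The macrophage list had 7 of 12 higher, beside the same 21.3%. Macrophage genes summed to between 48.9 and 51.5 CPM in controls, 76.7 and 76.2 in DSS WT, and 163 and 172 in DSS KO. The part of these cells in the rise of Alox5ap, Fyb and Ptprc was not tested. The share of each gene that comes from tuft cells cannot be read from whole-epithelium libraries.

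**Figure D4:**
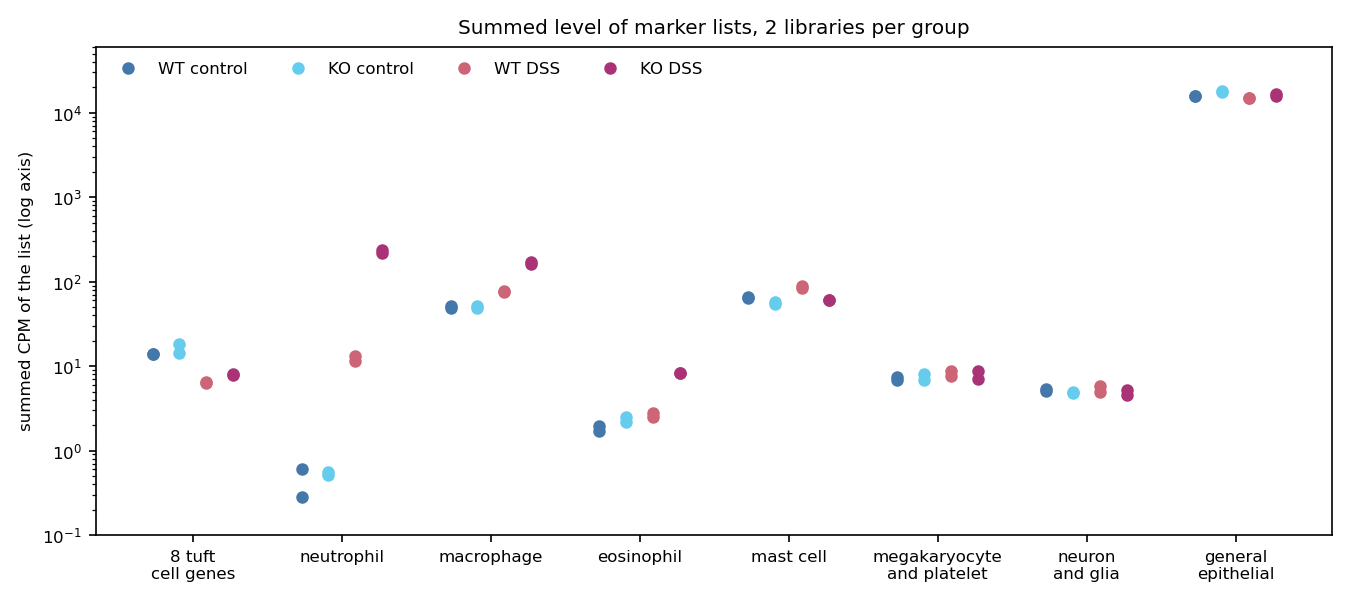
Summed CPM (log axis) of the 8 tuft cell genes and of 7 marker lists, with 2 libraries per group. Neutrophil genes run from under 1 CPM in controls to over 200 in DSS KO, the 8 tuft cell genes are lower in DSS libraries, and general epithelial genes lie between 14941 and 17850 CPM.

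Of 10 taste-signalling partners of Trpm5, 5 passed the filter. DSS called 1 of them higher in WT (Itpr3), beside 18.9% of all genes higher and 18.3% lower. In KO it called 1 higher (Gnai2) and 1 lower (Rgs13, above), beside 21.7% and 19.8%. Plcb2, the phospholipase upstream of Trpm5, changed with DSS by -0.11 ± 0.31 for WT (adjusted p = 0.818) and by -0.18 ± 0.34 for KO (adjusted p = 0.703), with 18 to 39 counts per library. Itpr3, the calcium release channel, which other epithelial cells also express, rose in WT by 0.32 ± 0.07 (adjusted p = 0.0022). Gnat3, the taste G protein gustducin, had 7 and 8 counts in control WT, 5 and 3 in control KO, 2 and 4 in DSS WT, and 0 and 1 in DSS KO. In KO its ratio was 8.69-fold lower with DSS (counting interval 1.17 to 386). Gng13 of the same list, also too rare to test, had 7 counts in control WT and 1 in DSS WT. In KO it went the other way, with 3 counts in controls and 8 under DSS (ratio 2.45, interval 0.589 to 14.36). Under DSS the ratio of KO to WT for Gng13 was 7.72 (interval 1.035 to 342.5).

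The leukotriene pathway around Alox5 and Ltc4s had 14 genes, of which 10 were tested. DSS called 3 higher and 2 lower in WT, where 37.2% of all genes were called. In KO it called 6 higher and 3 lower, where 41.6% were called. Pla2g4a, which frees arachidonate, rose in both WT (0.28, adjusted p = 0.00131) and KO (0.26, adjusted p = 0.00154). Ggt1, which trims leukotriene C4, rose in KO by 1.68 (adjusted p = 1.68e-05) and not past the threshold in WT (0.20, adjusted p = 0.496). Its interaction was 1.48 (adjusted p = 0.00354). Dpep1, the dipeptidase of the next step, fell in KO by 1.39 on the log2 scale (adjusted p = 1.44e-11).

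Of the type 2 signalling genes, 7 of 15 were tested. In WT, DSS called 3 higher and 1 lower, against 37.2% of all genes called. In KO there were 4 higher and 1 lower, against 41.6%. Il33, an alarmin, had 28 and 29 counts in control WT, 21 and 24 in control KO, 19 and 30 in DSS WT, and 112 and 117 in DSS KO, with KO above WT under DSS by 2.17 (adjusted p = 2.28e-06). Il4ra, the shared receptor chain for interleukins 4 and 13, rose with DSS by 1.46 for WT (adjusted p = 5.72e-10) and by 1.81 for KO (adjusted p = 1.49e-11). The 1 gene called lower with DSS was Areg in WT (-0.56, adjusted p = 4.15e-05) and Retnlb in KO (-0.58, adjusted p = 9.12e-07). Il13 had 0 counts in every library, and Il4 and Il5 had 1 count each in DSS WT replicate 1.

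Markers of other secretory cells were read over the same libraries, beside 18.9% of all genes higher and 18.3% lower with DSS in WT, and 21.7% and 19.8% in KO. Enteroendocrine genes, all 12 tested, were higher with DSS for 11 in WT and for 7, with 1 lower, in KO. Goblet cell genes had 3 higher and 5 lower of 10 with DSS in WT, and 2 higher and 7 lower in KO. The goblet list summed to between 16848 and 17543 CPM in controls, 10300 and 10013 in DSS WT, and 8172 and 8240.0 in DSS KO. The genes whose level over the 8 libraries most resembled the summed tuft cell genes were Rprd1b (Pearson r = 0.994), Pspc1 (0.990), Cdkn1a (0.987), Lad1 (0.986) and Tob1 (0.985). These values come from log2 (CPM + 0.5) in 8 libraries that split into control and DSS, and 364 of 11634 candidate genes exceeded 0.9, so many genes share this pattern. Correlation does not measure the size of a change. Rprd1b had means of 46.7 and 48.1 CPM in control WT and KO, and 40.3 and 41.6 under DSS. Among the other tuft and taste list genes, r ran from 0.894 (Sh2d7, rank 400) to -0.839 (Ptprc).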

How the data were processed

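RNA-seq libraries of mouse colon epithelium were deposited as 1 gene table each. The authors made the expected counts with RSEM, per the file headers, and the tools listed in the submitters' notes are RSEM 1.3.0, STAR 2.5.3a and DESeq2 1.18.1, on mm10. The annotation release and the strand setting are not given in the sources used here. The deposited TPM values are scaled by the authors' RSEM step to effective length. The FPKM values deposited by the authors were not used. The gene length and effective length columns are per the file headers.

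Expected counts were rounded and fitted in edgeR 4.0.16 (R 4.3.3) with TMM scaling, the filterByExpr filter, a mean per group over all 8 libraries and 4 residual degrees of freedom. Two-sided quasi-likelihood p-values were adjusted by Benjamini-Hochberg over 14991 genes, with a threshold of 0.05. The SE was taken as the absolute log2 change over the root of edgeR's F. The interaction is the DSS change in KO minus that in WT. CPM values are TMM-scaled. For genes too rare to test or with 1 to 3 counts in a group, ratios carry 95% exact counting intervals. These cover counting error only. A group at 0 was set to 3 counts, and that ratio carries no interval. Replicates differed by more than counting error, since chi-square over its degrees of freedom ran from 1.29 to 5.23.

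The members, lists and tests were chosen with earlier results of these data known. The text names the 8 genes, up to 3 called genes per list and comparison, list genes too rare to test, and the 5 genes most like the summed level. Sh2d7, Plcb2, Tsfm, Tssc4, Cib2 and some list genes given as examples were chosen after their values were seen. Alternatives were DESeq2 1.42.0, RLE scaling, length offsets, no filter or a stricter one, only the groups compared, each library left out, and a replicate block. The fits were tested on simulated data. Positions are from GENCODE M21, in which all 8 identifiers were found. Some genes of the lists are not reported here.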

Additional observations from a re-analysis of the deposited data

Results flagged for a closer look

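The DSS response differed between KO and WT by the interaction test in 2 of the 6 tuft cell genes tested, in 13 of the 26 other tuft list genes tested (6 higher and 7 lower) and in 1 of 5 taste-signalling partners, where 21.4% of all genes were called. Values are the log2 change with DSS in KO minus that in WT. Dclk1 (-1.96) and Avil (0.70) lie on opposite sides of 0, and both calls were lost when single libraries were left out. Sh2d6 (-1.73) and Sh2d7 (-2.18) fell more with DSS in KO than in WT, and Sox9 (-0.23) fell in both. Inpp5j (-0.37) and Pik3cg (-0.73) fell with DSS in KO and did not pass in WT. Kctd12 (-0.44) and Cd24a (-0.22) rose with DSS in WT and did not pass in KO.

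Positive values were those of Alox5ap (2.87), Chil1 (5.17), Fyb (1.60), Skap2 (0.51), Lrmp (0.40) and Gnai2 (0.22). Chil1 had 4 counts in all in DSS WT and 97 in DSS KO, and only DSS KO carried it past the low-count filter. Its place among the tested genes was thus tied to its DSS KO level. Lrmp fell with DSS in WT and did not pass in KO, and Gnai2 rose in KO and did not pass in WT. The neutrophil list was higher in the same DSS KO libraries, and its part in these values was not tested.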

How the results depend on the processing

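The DSS falls of Dclk1, Trpm5, Sh2d6 and Sh2d7 in both genotypes passed under every alternative run. Sh2d7 passed the low-count filter only through control libraries and was named after its values were seen. With length offsets, genotype called 1290 genes in controls (2310 as reported) and 1 of the 8 tuft genes under DSS (2), and the interaction called 1794 genes (3208) and 0 tuft genes (2). With DESeq2 the counts were 1246 genes for genotype in controls, 3801 under DSS (5855), 3379 for DSS in WT (5573), and 1671 genes and 1 tuft gene for the interaction. In the interaction and for genotype in controls DESeq2 gave no adjusted p for Pou2f3, Alox5 and Siglecf, so 3 of the 6 tuft genes could be called there. Without the filter the interaction called 1 tuft gene. With each library left out in turn, genes called ranged from 953 to 3174 for genotype in controls, 4093 to 6182 under DSS, 3659 to 6426 for DSS in WT (lowest without DSS WT replicate 1), 4603 to 6263 in KO, and 1891 to 4444 for the interaction. Tuft genes called then ranged from 1 to 3 for genotype under DSS (1 without DSS WT replicate 1), 2 to 4 for DSS in KO (2 without control KO replicate 1) and 0 to 1 for the interaction.

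Some values that were not called changed sign. Over the libraries left out in turn, genotype in controls ran from -0.12 to 0.70 for Dclk1, -0.029 to 0.23 for Trpm5, -0.50 to 0.43 for Pou2f3 and -0.39 to 0.074 for Alox5, with the other sign without control KO replicate 1 in each. DSS in KO ran from -0.87 to 0.038 for Alox5 (positive without DSS KO replicate 1). For Siglecf, DSS in WT ran from -1.14 to 0.27 (0.12 without control WT replicate 2 and 0.27 without DSS WT replicate 2), and the interaction from -0.97 to 0.44 (positive without DSS WT replicate 1). With length offsets, Avil gave -0.073 for genotype in controls, Trpm5 0.33 for genotype under DSS and 0.053 for the interaction, and Alox5 0.23 for DSS in KO. The cause was not tested.

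With the replicate number as a block, 2186, 5791, 5449, 6142 and 3085 genes were called in the 5 comparisons, and 1 tuft gene for the interaction, where Avil missed (adjusted p = 0.0578). Same-numbered replicates did not deviate together, with correlations from -0.115 to 0.106, so the numbers were not taken as pairs. A crossed block for DSS in WT, chosen after seeing the data, called 5186 genes and 3 tuft genes. Ltc4s and Gfi1b were limited by depth.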
